A study of Mus musculus with 24 samples.

Results

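The genes described here are 10 transcripts that mark mast cells in mouse skin, chosen by name from the 18368 genes of the deposited expression table and followed through all 24 libraries. They were the granule proteases Cma1, Mcpt4, Tpsb2, Tpsab1 and Cpa3, the receptors Kit, Ms4a2, Fcer1a and Mrgprb2, and the histamine-forming enzyme Hdc. RNA came from whole skin of 12 CD1 mice aged 7 weeks, an outbred albino stock whose hair follicles were in the resting phase (telogen). Abdomen, back and cheek were each sampled in 4 mice, and every mouse gave a full-thickness excisional wound, made with a 2 mm punch and collected on day 3, and unwounded skin taken next to it with the same size of punch. Mice carried 1 wound on the cheek but 2 on the abdomen or back, so the number of wounds and a difference between cheek and the other sites cannot be told apart. Values are FPKM, a fragment count divided by transcript length and by library size, which summed to between 490830 and 608888 per library over all genes; fragment totals were not given in the sources used here.

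Mast cells are long-lived immune cells of the dermis that sit around vessels, nerves and hair follicles and are filled with granules of proteases, heparin and histamine. They develop under stem cell factor (Kitl), which binds the receptor tyrosine kinase KIT, and connective tissue mast cells of the skin store chymases (Cma1, Mcpt4), tryptases (Tpsb2, Tpsab1) and carboxypeptidase A3 (Cpa3). IgE bound to FcεRI, built from an alpha chain (Fcer1a), a beta chain (Ms4a2) and gamma chains (Fcer1g), triggers granule release, while MRGPRB2 does so in response to cationic peptides and drugs.

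The promoters of 4 members are shown because Mcpt4 and Cpa3 varied together, Mrgprb2 fell in wounds and Hdc rose, as described further on. Each is the RefSeq window of GRCm38.p6 from 250 bases before to 50 after an annotated start, all on the minus strand and written 5′ to 3′; capitals mark GATAA, the core bound by GATA factors, or its reverse complement TTATC.
Mcpt4, chr14:56062261-56062560: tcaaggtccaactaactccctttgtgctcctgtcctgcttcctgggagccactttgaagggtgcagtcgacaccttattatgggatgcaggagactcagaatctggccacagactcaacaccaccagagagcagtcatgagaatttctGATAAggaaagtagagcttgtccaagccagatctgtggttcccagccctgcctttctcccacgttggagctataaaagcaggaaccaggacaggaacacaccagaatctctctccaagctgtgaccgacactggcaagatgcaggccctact
Cpa3, chr3:20242132-20242431: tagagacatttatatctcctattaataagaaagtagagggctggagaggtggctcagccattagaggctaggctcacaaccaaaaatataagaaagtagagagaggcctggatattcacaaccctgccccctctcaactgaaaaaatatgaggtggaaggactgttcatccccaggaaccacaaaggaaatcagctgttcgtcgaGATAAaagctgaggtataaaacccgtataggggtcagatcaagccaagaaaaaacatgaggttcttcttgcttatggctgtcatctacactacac
Mrgprb2, chr7:48558037-48558336: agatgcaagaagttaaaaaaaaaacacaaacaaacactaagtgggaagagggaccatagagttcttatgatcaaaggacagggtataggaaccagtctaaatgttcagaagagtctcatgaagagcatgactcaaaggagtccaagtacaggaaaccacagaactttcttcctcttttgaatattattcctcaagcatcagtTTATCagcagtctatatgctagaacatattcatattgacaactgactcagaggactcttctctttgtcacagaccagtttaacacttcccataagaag
Hdc, chr2:126618629-126618928: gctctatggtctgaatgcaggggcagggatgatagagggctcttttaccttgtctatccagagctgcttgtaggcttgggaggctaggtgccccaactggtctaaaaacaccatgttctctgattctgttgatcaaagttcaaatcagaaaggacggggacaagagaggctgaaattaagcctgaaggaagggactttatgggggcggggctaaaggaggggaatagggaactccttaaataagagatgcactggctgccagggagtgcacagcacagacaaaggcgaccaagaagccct
The table of promoters held 8 of the 10 members, all but Tpsb2 and Tpsab1. GATAA was found on either strand in 6 of the 8, once each in Fcer1a, Cpa3, Mrgprb2, Cma1 and Mcpt4 and 3 times in Ms4a2, and it lay in 25.4% of the 32851 promoters of the same length. The windows of Hdc and Kit held none, which says only that these letters are not in them; the Hdc window lies inside the annotated span of that gene. CACATG, a core bound by MITF, was searched on both strands and found in 1 of the 8 (Fcer1a) against 14.2% of all promoters, and CACGTG in 0 of the 8 against 7.15%. These matches are descriptions of sequence and were not related to the measured levels by any test.

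In GRCm38.p6, Cma1 (gene ID 17228, chromosome 14, 55941451 to 55944675, minus strand) lies 115068 bases from Mcpt4 (17227, 14, 56059744 to 56062310, minus strand). The tryptase genes Tpsb2 (17229, 17, 25366308 to 25368096, plus strand) and Tpsab1 (100503895, 17, 25343245 to 25345562, minus strand) lie 20745 bases apart. The other members are scattered: Cpa3 (12873) on chromosome 3, Kit (16590) on 5, Ms4a2 (14126) on 19, Fcer1a (14125) on 1, Mrgprb2 (243979) on 7 and Hdc (15186) on 2. Because the proteases belong to families of related genes, their annotated transcripts were searched for stretches of 100 bases, the read length, that another gene also holds. Cma1, Tpsb2, Tpsab1 and Cpa3 held none, and Mcpt4 shared 1 of its 1009 stretches with Cma2.

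Transcripts of the granule proteases Mcpt4, Cma1, Cpa3 and Tpsb2 were readily measured in skin of every site. Mcpt4, a chymase, had the highest FPKM of the 10 members in 12 of 12 unwounded and 12 of 12 wound libraries. In unwounded skin the medians over 12 libraries were 86.2 FPKM for Mcpt4, 38.1 for Cma1, 38.0 for Cpa3 and 26.6 for Tpsb2. The ranks of Cma1 (2 to 3) and Cpa3 (2 to 4) overlapped from library to library, so these neighbours in the order were not separated. Far below them followed Kit at 2.62 FPKM, Hdc at 1.68, Ms4a2 at 1.23, Mrgprb2 at 0.915, Fcer1a at 0.285 and Tpsab1 at 0.210. In wounds the order changed for Hdc, which stood between rank 5 and 8 in unwounded skin and between 2 and 5 in wounds with a median of 32.1 FPKM.

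The lowest members rested on few fragments. Values of Mrgprb2 below 0.7 FPKM fell near multiples of 0.061 FPKM, at which size its highest value of 1.14 FPKM corresponds to about 18.7 steps, and those of Fcer1a near multiples of 0.062 FPKM. Such steps are a rough guide to 1 fragment, since the estimated counts behind FPKM need not be whole, and differences in Mrgprb2, Fcer1a and Tpsab1 carry large counting error.

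**Figure D1:**
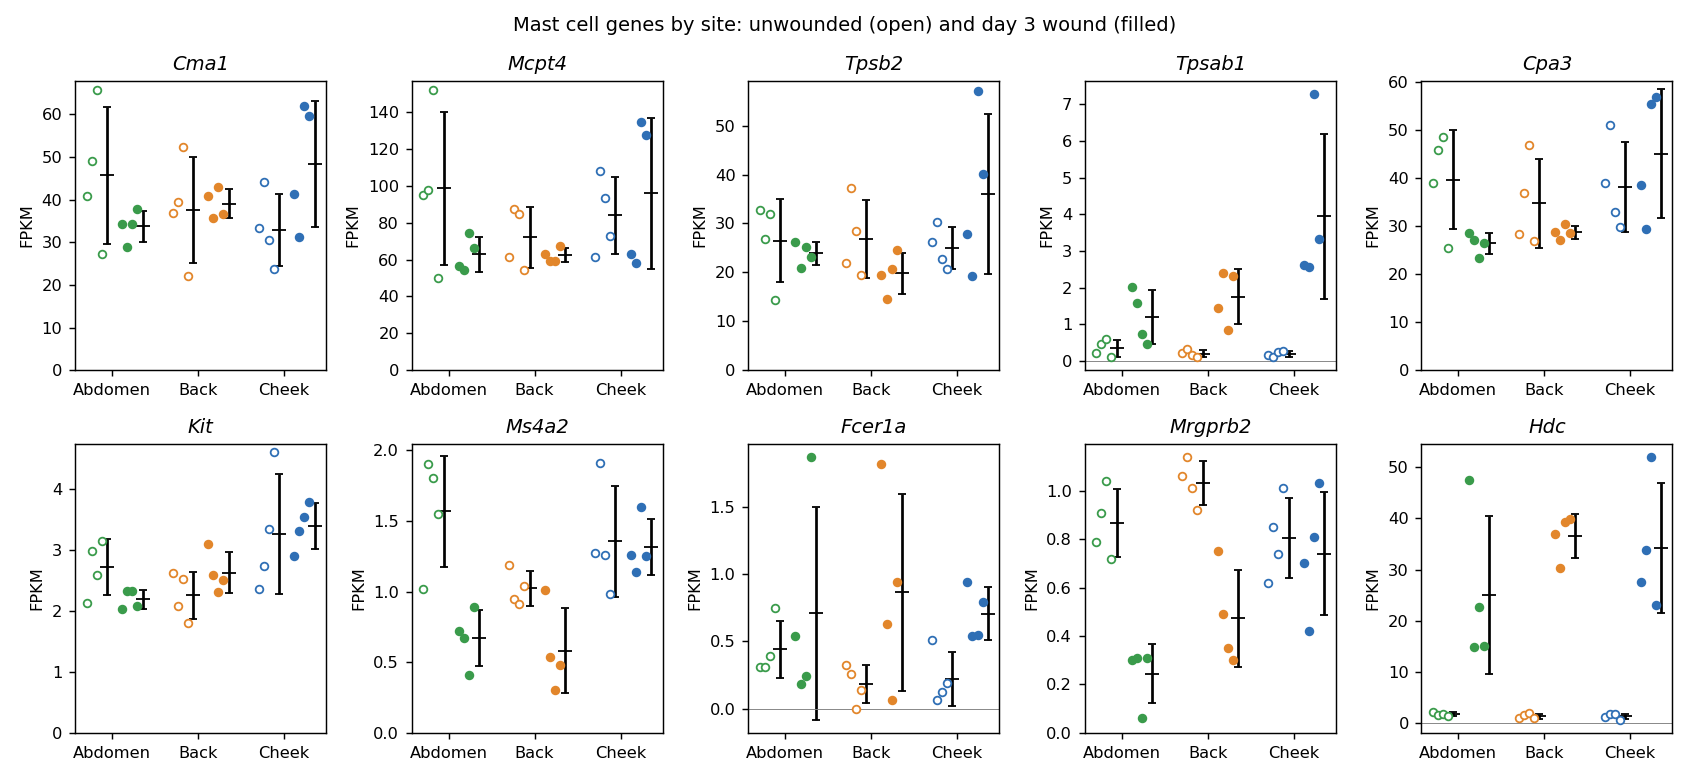
FPKM of each of the 10 genes (vertical axes, a separate scale for each gene) in unwounded skin (open circles) and day 3 wounds (filled circles) of abdomen (green), back (orange) and cheek (blue), with 1 point per mouse and bars for the mean ± SD (n = 4). Hdc lay between 0.67 and 2.26 FPKM in all unwounded libraries and between 14.82 and 52.02 in all wounds, whereas the ranges of Cma1, Mcpt4, Tpsb2 and Cpa3 in the 2 tissues overlapped at each site.

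Whether wounding changed these genes was tested by comparing each wound with unwounded skin of the same mouse, in a limma model of log2(FPKM + 0.5) fitted to the 24 libraries together, in which every mouse had its own term. For the mean wound effect over the 3 sites, 3 of the 10 members rose (Hdc, Tpsab1 and Fcer1a), 2 fell (Ms4a2 and Mrgprb2) and 5 did not pass the adjusted threshold of 0.05. Of the 14423 genes tested, 33.3% rose and 29.4% fell, 62.7% in all, so 5 of 10 is no more than the share over all genes. Member effects spanned -0.55 to 3.95 with a median of -0.01, beside a median of 0.02 over all genes. In this bulk tissue fewer mast cells and less RNA per mast cell cannot be told apart. All 10 members passed the filter on low values in this fit, which required 0.5 FPKM in at least 4 libraries. Tpsab1 and Fcer1a reached that level in 1 and 2 of 12 unwounded libraries and in 11 and 9 of 12 wound libraries. They would not have passed on unwounded skin alone, so the filter let them in through the tissue in which they were higher. Their limma p-values for the wound effect are a description only, and the count of 3 members that rose includes them.

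The change of Hdc, whose product histidine decarboxylase makes histamine from histidine, was the largest among the members. On the abdomen Hdc measured 2.26, 1.69, 1.78 and 1.44 FPKM in unwounded skin of mice 1 to 4 and 47.5, 14.82, 22.76 and 15.01 in their wounds. On the back the unwounded values were 0.94, 1.66, 1.93 and 0.98 FPKM against 37.02, 30.38, 39.21 and 39.79 in wounds. Cheek skin gave 1.23, 1.73, 1.76 and 0.67 FPKM, and cheek wounds 27.65, 33.88, 52.02 and 23.09. Every wound exceeded every unwounded sample, without overlap. The ratio of group means was 14.0 on the abdomen, 26.6 on the back and 25.4 on the cheek, and on the log2 scale the mean effect was 3.95 (95% interval 3.70 to 4.21, adjusted p = 1.8e-10, limma), with 12 of 12 mice higher (exact two-sided sign-change test, p = 0.000488, the smallest that 12 mice allow).

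Cells other than mast cells can express Hdc, and several of them moved in the same direction. The summed FPKM of 8 neutrophil markers was 2.68 to 9.94 in unwounded skin and 28.07 to 98.76 in wounds. Of the 7 tested, 5 rose (Retnlg, 3.45 log2, adjusted p = 7.4e-07, limma). Within the unwounded libraries alone, 4 of the neutrophil markers passed the filter on low values. The rest of the 7 were tested only through the wounds, so the count of 5 is a description only. For 7 macrophage markers the sum was 381.87 to 776.9 in unwounded skin and 722.69 to 1214.41 in wounds. All 7 rose, led by the integrin Itgam (1.71 log2, adjusted p = 7.3e-09, limma). Of all genes tested, 33.3% rose and 29.4% fell in the mean wound effect. The 3 basophil markers summed to 0 to 0.29 FPKM in unwounded skin and 0.13 to 1.6 in wounds. No defining marker on these 3 lists was at 0 in all wounds. The part of these cells in the Hdc change was not tested.

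Tpsab1, a soluble granule tryptase, was barely present in unwounded skin and higher in wounds. It passed the filter on low values only through the wounds, so its limma p-values here are a description only. Abdominal skin gave 0.21, 0.47, 0.61 and 0.11 FPKM for mice 1 to 4, and their wounds 2.03, 1.59, 0.73 and 0.46. The back gave 0.21, 0.33, 0.16 and 0.12 FPKM unwounded and 1.44, 2.4, 0.84 and 2.33 in wounds. Cheek values were 0.16, 0.11, 0.26 and 0.27 FPKM in skin and 2.63, 2.55, 7.27 and 3.33 in wounds. Each of the 12 wounds exceeded its paired skin (exact p = 0.000488), and wound and skin values overlapped on the abdomen only. The log2 change was 0.94 on the abdomen (adjusted p = 0.017, limma), 1.62 on the back (adjusted p = 0.00039) and 2.56 on the cheek (adjusted p = 1.7e-05), and the call on the abdomen was lost without abdomen mouse 1 or 2 (adjusted p up to 0.096 with a mouse left out).

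Tpsb2, the neighbouring tryptase gene, did not move with it. Its mean wound effect was -0.02 (95% interval -0.43 to 0.39, adjusted p = 0.92, limma), with 5 mice higher and 7 lower. Tpsab1 made up 0.361 to 1.87% of the summed FPKM of the 2 tryptases in unwounded skin (median 0.817%) and 1.94 to 14.1% in wounds (median 7.43%), so that Tpsb2 remained the larger of the 2 in each of the 24 libraries.

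The 4 abundant proteases Cma1, Mcpt4, Tpsb2 and Cpa3 were not changed detectably by wounding. Cma1 measured 45.7 ± 16.1 FPKM in unwounded abdomen (SD, n = 4) and 33.8 ± 3.64 in its wounds, 37.7 ± 12.4 and 39.1 ± 3.42 on the back, and 32.9 ± 8.44 and 48.5 ± 14.8 on the cheek. Mcpt4 measured 98.7 ± 41.6 and 62.9 ± 9.39 FPKM on the abdomen, 72.1 ± 16.6 and 62.4 ± 3.83 on the back, and 84.0 ± 20.9 and 96.0 ± 40.9 on the cheek. Tpsb2 gave 26.5 ± 8.46 and 23.9 ± 2.36 FPKM, 26.8 ± 7.96 and 19.8 ± 4.10, and 25.0 ± 4.28 and 36.1 ± 16.3 at the same sites in the same order. For each of these genes the wound mean lay below the skin mean on the abdomen and above it on the cheek. Cpa3, which trims peptides at their carboxyl end, measured 39, 45.88, 48.59 and 25.5 FPKM in abdominal skin against 28.57, 27.2, 23.44 and 26.51 in wounds. On the back its values were 28.36, 36.9, 46.98 and 26.85 FPKM unwounded and 28.77, 27.11, 30.47 and 28.59 wounded. Cheek skin held 39.04, 51.05, 32.91 and 29.85 FPKM and cheek wounds 38.6, 29.43, 55.47 and 57.04. Skin and wound values overlapped for all 4 proteases at all 3 sites.

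None of the 4 passed the test at any site with all mice in the fit. The mean wound effects were 0.09 for Cma1 (95% interval -0.28 to 0.46), -0.20 for Mcpt4 (-0.56 to 0.15), -0.02 for Tpsb2 (-0.43 to 0.39) and -0.19 for Cpa3 (-0.51 to 0.13), with limma adjusted p between 0.28 and 0.92. Between 5 and 6 of 12 mice were higher in the wound for each gene, and the exact sign-change p lay between 0.27 and 0.92. The intervals reach a mean change of 0.56 log2 in size. Single mice decided some of these results: without abdomen mouse 4 Mcpt4 was lower in abdomen wounds (-0.87 log2, adjusted p = 0.04), without cheek mouse 2 Cma1 was higher in cheek wounds (0.87, adjusted p = 0.04) and Cpa3 lower in abdomen wounds (-0.54, adjusted p = 0.047).

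Behind these averages the direction varied from mouse to mouse, and it did so for the 4 proteases together. Their summed FPKM on the abdomen went from 207.5 to 145.31 in mouse 1, 219.88 to 131.35 in mouse 2, 298.06 to 157.42 in mouse 3 and 117.23 to 154.06 in mouse 4. On the back the sums went from 148.68 to 152.36, 201.15 to 136.96, 212.64 to 153.3 and 122.97 to 157.18 in mice 1 to 4. The cheek went from 160 to 170.88, 233.75 to 138.22, 179.57 to 309.05 and 147.11 to 284.66. Thus the sum was lower in the wound in 6 mice and higher in 6. In abdomen and back wounds it lay in a narrow band of 131.35 to 157.42, whereas unwounded skin of all sites spread from 117.23 to 298.06 and cheek wounds from 138.22 to 309.05.

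**Figure D2:**
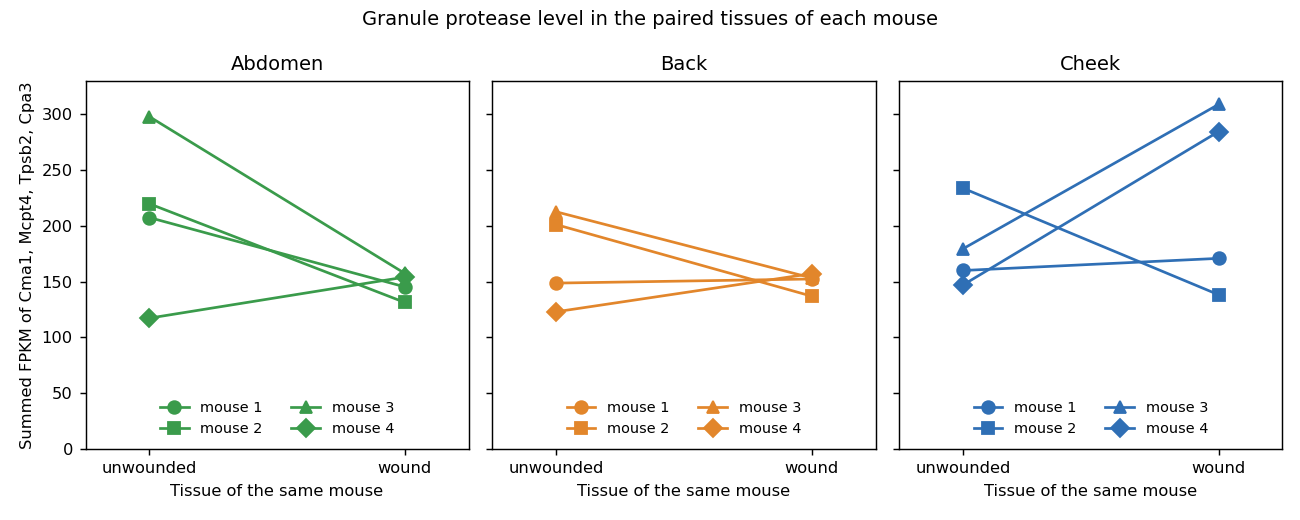
Summed FPKM of the 4 granule proteases Cma1, Mcpt4, Tpsb2 and Cpa3 (vertical axis) in unwounded skin and wound, joined for each mouse (marker shape), at abdomen, back and cheek. The 8 abdomen and back wounds lie between 131.35 and 157.42, whichever level the paired skin had, and cheek mice 3 and 4 rise to 309.05 and 284.66.

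Receptor genes moved in different directions. Mrgprb2, the receptor through which peptides and drugs activate connective tissue mast cells, measured 0.79, 0.91, 1.04 and 0.72 FPKM in abdominal skin and 0.3, 0.31, 0.06 and 0.31 in abdominal wounds. Back skin gave 1.06, 1.14, 1.01 and 0.92 FPKM and back wounds 0.75, 0.49, 0.35 and 0.3. Cheek skin gave 0.62, 0.85, 0.74 and 1.01 FPKM and cheek wounds 0.7, 0.42, 0.81 and 1.03. Wound and skin did not overlap on the abdomen or back, but did on the cheek, where 3 of 4 mice were higher in the wound. Mrgprb2 fell by 0.88 on the log2 scale on the abdomen (adjusted p = 0.002, limma) and by 0.68 on the back (adjusted p = 0.0054). On the cheek the change was -0.09 (95% interval -0.45 to 0.27, adjusted p = 0.71), and the mean over sites was -0.55 (adjusted p = 0.00028), with 9 of 12 mice lower (exact sign-change p = 0.0039).

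Ms4a2, the beta chain that amplifies FcεRI signals, followed a like pattern. Abdominal skin held 1.02, 1.9, 1.8 and 1.55 FPKM and its wounds 0.72, 0.67, 0.41 and 0.89. On the back, skin held 1.19, 0.95, 0.91 and 1.04 FPKM and wounds 1.01, 0.54, 0.3 and 0.48. Cheek skin held 1.27, 1.91, 1.26 and 0.98 FPKM and cheek wounds 1.26, 1.14, 1.6 and 1.25. All 8 abdomen and back mice were lower in the wound, while 2 of 4 cheek mice were. The fall was 0.81 log2 on the abdomen (adjusted p = 0.0055, limma) and 0.53 on the back (adjusted p = 0.032), and the back call was lost without back mouse 2, 3 or 4 (adjusted p up to 0.13). On the cheek the change was -0.02 (95% interval -0.41 to 0.38, adjusted p = 0.95). Ms4a2 shared 13 of its 3104 stretches of 100 bases with Ms4a4b.

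Fcer1a, the IgE-binding alpha chain, rose in the mean over sites (0.60 log2, adjusted p = 0.0015, limma, 10 of 12 mice higher), while Ms4a2 fell (-0.45, adjusted p = 0.0024, 10 of 12 lower). Fcer1a passed the filter on low values only through the wounds, so its limma p-values are a description only. On the abdomen it measured 0.31, 0.31, 0.39 and 0.75 FPKM in skin and 0.54, 0.18, 0.24 and 1.87 in wounds. The back gave 0.32, 0.26, 0 and 0.14 FPKM in skin and 1.82, 0.63, 0.06 and 0.94 in wounds. Cheek skin gave 0.51, 0.06, 0.12 and 0.19 FPKM and cheek wounds 0.94, 0.54, 0.55 and 0.79. Groups did not overlap on the cheek, where the log2 change was 0.77 (adjusted p = 0.019, limma), and 4 of 4 mice were higher on the back as well (0.85, adjusted p = 0.0089), but only 2 of 4 on the abdomen (0.19, adjusted p = 0.55). The back call was lost without back mouse 1 (adjusted p = 0.056), and the cheek call without cheek mouse 2, 3 or 4 (adjusted p up to 0.073). Without the mouse terms the adjusted p was 0.065 on the back and 0.11 on the cheek.

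Basophils also carry the whole IgE receptor, so their protease gene Mcpt8 was set beside Fcer1a. Mcpt8 was at 0 in 10 of 12 unwounded libraries and at 0.08 FPKM in the other two, while wounds held 0.3, 0.08, 0.53 and 0.08 FPKM on the abdomen, 1.5, 0.16, 0.22 and 0.44 on the back and 0.3, 0.6, 0.53 and 0.23 on the cheek. It reached 0.5 FPKM in 4 libraries, all wounds, and so passed the filter only through the tissue in which it was higher; no test of its change is given. Back mouse 1 had the highest Mcpt8 and the highest Fcer1a of the back wounds, whereas abdomen mouse 4 had the highest Fcer1a of its site with 0.08 FPKM of Mcpt8, and cheek mouse 2 had the highest Mcpt8 and the lowest Fcer1a of the cheek wounds. The other 2 basophil genes on the list, Prss34 and Cd200r3, did not pass the filter. Whether basophils accounted for the change in Fcer1a was not tested.

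Kit, the receptor for stem cell factor, did not pass the test of the wound effect at any site (on the abdomen -0.25 log2, adjusted p = 0.13, limma, but -0.29 and 0.046 under quantile normalization). It measured 2.13, 2.99, 2.6 and 3.16 FPKM in abdominal skin and 2.04, 2.33, 2.33 and 2.09 in abdominal wounds. Back skin gave 2.63, 2.08, 2.53 and 1.8 FPKM and back wounds 3.1, 2.6, 2.31 and 2.52. Cheek skin gave 2.37, 2.75, 3.35 and 4.61 FPKM and cheek wounds 2.91, 3.31, 3.55 and 3.8. The level was lower in the wound in 4 of 4 abdomen mice and higher in 3 of 4 at both other sites, and the mean effect was 0.01 log2 (95% interval -0.14 to 0.15, adjusted p = 0.95, limma; the sign turned under both other scalings of the libraries, at -0.02 and -0.05). Melanocytes also express Kit; 8 melanocyte markers summed to 16.17 to 79.01 FPKM in skin and 14.34 to 30.22 in wounds, 5 of the 6 tested fell in the mean over sites (Dct, -0.75 log2, adjusted p = 0.0019) and none rose; by site 0 of the 6 passed on the abdomen, 0 on the back and 4, all lower, on the cheek. Of all genes, 33.3% rose and 29.4% fell in the mean over sites, and 16.9% fell on the cheek. The part of melanocytes in the Kit values was not tested.

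Counted by site, 2 members rose and 2 fell on the abdomen, where 16.9% of all genes rose and 16% fell. On the back 3 rose and 2 fell, against 28% and 17.9% of all genes. On the cheek 3 rose and 0 fell, against 19.7% and 16.9%. At the stricter threshold of 0.001 only Hdc passed on the abdomen, where 4.96% of all genes did, and Hdc and Tpsab1 on the back and on the cheek, where 14.4% and 8.69% did. These counts include Tpsab1 at each site and Fcer1a on the back and cheek, which passed the filter only through the wounds.

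**Figure D3:**
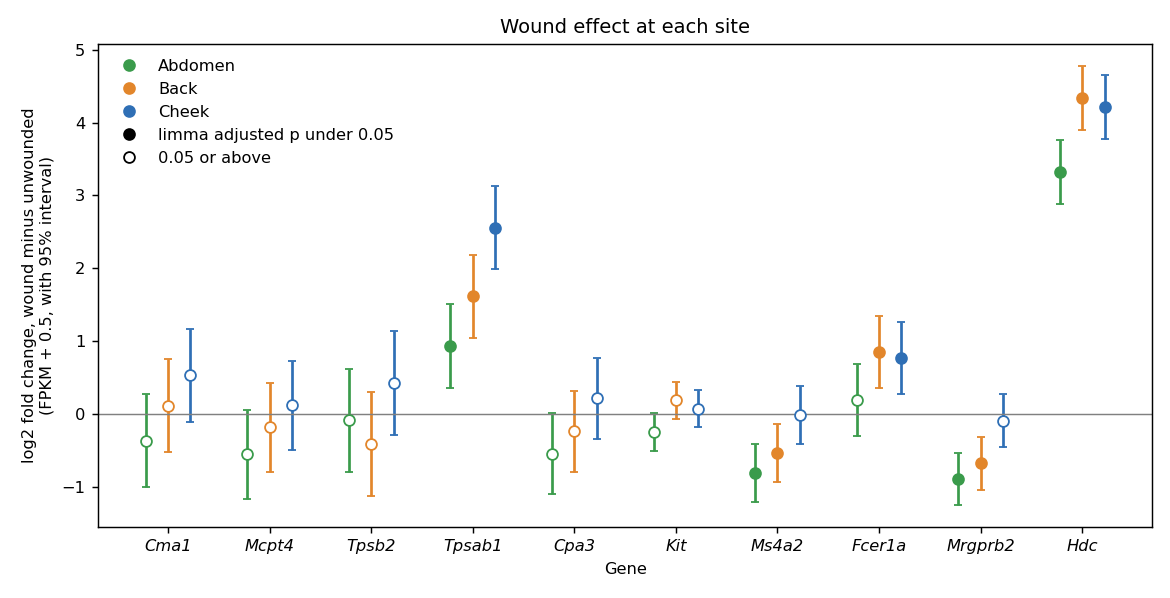
Log2 fold change of FPKM + 0.5 between wound and unwounded skin (vertical axis) for each of the 10 genes at abdomen (green), back (orange) and cheek (blue), with 95% intervals from limma and filled points for an adjusted p under 0.05. Hdc lies at 3.32, 4.33 and 4.21, and Mrgprb2 lies at -0.88 and -0.68 on abdomen and back but at -0.09 on the cheek.

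For every member the estimated wound effect was higher on the cheek than on the abdomen, by 0.32 to 1.62 log2 with a median of 0.78, beside a median of 0.04 over all genes. The largest of these differences were those of Tpsab1 (1.62, 95% interval 0.81 to 2.43), Cma1 (0.90, -0.0038 to 1.80), Hdc (0.89, 0.27 to 1.52), Mrgprb2 (0.80, 0.29 to 1.30) and Ms4a2 (0.80, 0.23 to 1.36). In the test of whether the 3 wound effects differ, 0 of 10 members passed the adjusted threshold where 0.0208% of all genes did, and 4 had an unadjusted p under 0.05, where 12.9% of all genes did. The lowest adjusted p was 0.23, for Tpsab1 (limma F test). Without abdomen mouse 1, whose wound held the highest abdominal Hdc, 2 members passed, Hdc (adjusted p = 0.037) and Tpsab1 (adjusted p = 0.041), and the number of all genes passing went from 3 to 315. A difference in response between sites was therefore not established for any member over all 12 mice.

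Unwounded skin of the 3 sites was compared to ask whether mast cell transcripts differ with anatomy before injury. Here 8 members passed the filter on low values, and 0 differed between back and abdomen, cheek and abdomen, or cheek and back, where 2.67%, 2.57% and 1.05% of the 13956 genes tested did. At an unadjusted p under 0.05 there was 1, 0 and 1, against 22%, 19% and 21.6% of all genes. These were Ms4a2, at 1.57 ± 0.39 FPKM on the abdomen and 1.02 ± 0.12 on the back (SD, n = 4; -0.42 log2, adjusted p = 0.20, limma), and Kit, at 3.27 ± 0.98 FPKM on the cheek and 2.26 ± 0.39 on the back (0.43 log2, 95% interval 0.03 to 0.83, adjusted p = 0.21).

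Among wounds, cheek stood above abdomen. Of the 10 members, 4 were higher in cheek wounds and 0 lower, against 7.52% and 3.32% of the 14023 genes tested, and the median over members was 0.53 log2 beside 0.07 over all genes. These were Tpsab1 (1.38 log2, adjusted p = 0.044, limma; lost in 9 of the 12 fits without 1 mouse, with adjusted p up to 0.12, and in 4 of 8 other settings), Mrgprb2 (0.73, adjusted p = 0.039), Cpa3 (0.71, adjusted p = 0.028) and Kit (0.53, adjusted p = 0.015). For each of them, and for Ms4a2 (0.64, adjusted p = 0.052), all 4 cheek wounds lay above all 4 abdomen wounds (exact permutation p = 0.0286, the smallest that 4 against 4 allows), as they did for 13.6% of all genes; 10.8% passed limma in either direction. Mrgprb2 reached 0.5 FPKM in 4 of the 12 wounds, 3 of the cheek and 1 of the back. Between cheek and abdomen it therefore passed the filter only through the cheek. Its p-values here are a description only, and the count of 4 higher members includes it. The number of members called went to 1 without abdomen mouse 3, cheek mouse 3 or cheek mouse 4, to 2 without cheek mouse 1 or back mouse 2, and to 5 without abdomen mouse 1 or back mouse 3. Mrgprb2 fell below the filter and went untested in 4 of the 12 such fits (without back mouse 1 or cheek mouse 1, 3 or 4), and of the 8 others its call was lost in 2 (without back mouse 2 or abdomen mouse 3, adjusted p up to 0.10). Kit alone was called in all 12.

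Cheek and back wounds did not differ for any member by the adjusted test, where 2.5% of all genes did, and 5 members, none of them lower on the cheek, had an unadjusted p under 0.05, where 26.1% did (median over all genes 0.09 log2). Nearest to the threshold was Ms4a2 (0.78 log2, 95% interval 0.36 to 1.19, adjusted p = 0.054), whose 4 cheek wounds of 1.14 to 1.6 FPKM lay above the 4 back wounds of 0.3 to 1.01. Between back and abdomen wounds 0 members differed, where 1.27% of all genes passed, and 0 had an unadjusted p under 0.05, where 16.5% did.

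How far the members varied together was described by Pearson correlation over the 24 libraries after the mean of each site and tissue was subtracted; the libraries share mice in pairs, and no test was made. The 6 pairs among Cma1, Mcpt4, Tpsb2 and Cpa3 had r of 0.78 to 0.91, highest for Cma1 and Cpa3. The other 39 pairs had r of -0.28 to 0.54 with a median of 0.25. Ms4a2 correlated at 0.54 with Mrgprb2 and at 0.51 with Fcer1a, whereas Kit and Fcer1a stood apart from the remaining members (r = -0.01 and -0.08 with the mean of the others). Hdc had r of 0.29 to 0.48 with the 4 proteases. Outside the list, the genes most like the member mean were Iqck (r = 0.72), Tcn2 (0.70), Sema6b (0.70), Igfbp7 (0.69) and Htra3 (0.68), followed by Lrg1, Mmp19, Cpxm1, Crem and Zdhhc14 at 0.66 to 0.67.

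**Figure D4:**
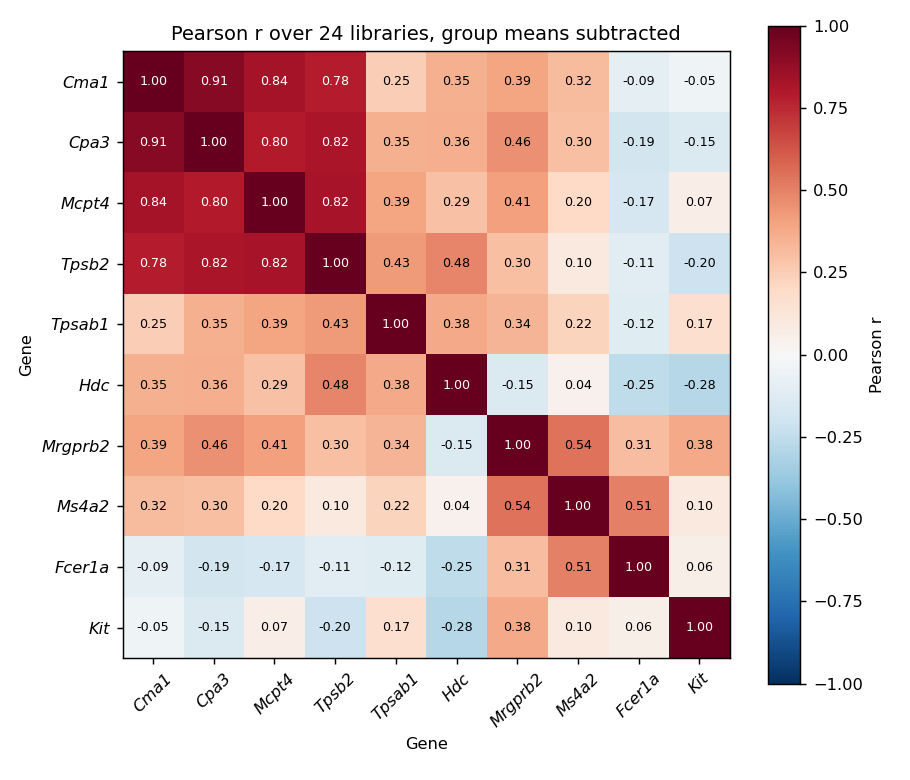
Pearson r (colour and number) between log2(FPKM + 0.5) of each pair of the 10 genes over 24 libraries, after the mean of each site and tissue was subtracted. The 4 proteases Cma1, Cpa3, Mcpt4 and Tpsb2 form a block at 0.78 to 0.91, and the other pairs lie between -0.28 and 0.54.

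The growth factors and alarm signals of mast cells were then followed. Of 11 listed ligands 6 were tested, and in the mean wound effect 4 rose and 0 fell, where 33.3% of all genes rose and 29.4% fell. The largest rise was that of Il33, an alarm cytokine for mast cells (2.46 log2, adjusted p = 5.0e-07, limma), and its receptor gene Il1rl1 rose by 2.01 (adjusted p = 8.3e-07). Kitl, the growth factor itself, measured 5.16, 5.73, 4.87 and 6.7 FPKM in abdominal skin and 4.32, 5.91, 3.57 and 4.24 in abdominal wounds. Back skin gave 5.72, 6.97, 7.54 and 6.33 FPKM and back wounds 6.92, 6.06, 5.14 and 4.87. Cheek skin gave 7.27, 7.72, 9.97 and 8.33 FPKM and cheek wounds 8.11, 8.44, 8.21 and 7.77. Its mean wound effect was -0.17 log2 (adjusted p = 0.06, limma), and cheek wounds exceeded abdomen wounds by 0.80 log2 (adjusted p = 0.0081), in the same direction as Kit. Before injury the Kitl values of cheek skin (7.27 to 9.97 FPKM) also lay above those of abdominal skin (4.87 to 6.7). That difference did not pass the adjusted threshold, where 2.57% of all genes did.

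Genes that act beside the members but are also expressed by other leukocytes were counted next, where 33.3% of all genes rose and 29.4% fell. Of 13 genes of IgE receptor signalling 10 rose and 1 fell, with Fcer1g, the gamma chain also used by macrophages and neutrophils, up by 1.72 log2 (adjusted p = 4.4e-08, limma) and the kinase Fyn down (-0.27, adjusted p = 0.00048). Among 7 other receptors 6 rose and 0 fell, led by the anaphylatoxin receptor C3ar1 (2.32, adjusted p = 1.6e-10). Of 6 tested among 9 further granule and amine genes, 2 rose and 2 fell; Srgn, the granule proteoglycan core that many leukocytes hold, rose by 2.81 (adjusted p = 9.5e-09) and Tpsg1, a membrane-anchored tryptase, changed by -0.31 (adjusted p = 0.003). The 7 eicosanoid genes split into 2 that rose, 1 that fell and 4 that did not pass, with the prostaglandin synthase Ptgs2 at 3.23 (adjusted p = 6.2e-09) and the lipoxygenase Alox5 at -0.26 (adjusted p = 0.01).

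Among mast cell transcription factors, 5 of 6 were tested: Stat5a rose by 0.19 log2 (adjusted p = 0.0071, limma), 2 fell, led by Mitf, which drives mast cell and melanocyte genes (-0.45, adjusted p = 0.00015), and Gata2, required in mast cells, was at -0.04 (95% interval -0.26 to 0.17, adjusted p = 0.72). In the histamine pathway 3 of 6 genes were tested: the receptor gene Hrh2 rose by 0.66 (adjusted p = 5.8e-05) and 2 fell, among them Hnmt, the enzyme that methylates histamine (-0.46, adjusted p = 0.00025). By site Hnmt passed on the abdomen (-0.73, adjusted p = 0.0019) but not on the back (-0.28, adjusted p = 0.11) or cheek (-0.36, adjusted p = 0.056).

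Markers of the other cells in the punch also shifted. In the mean wound effect all 5 adipocyte and all 4 skeletal muscle genes tested fell. So did 4 of 6 fibroblast genes (1 rose) and 2 of 3 T cell genes, whereas 6 of 7 endothelial (1 fell) and 3 of 5 keratinocyte genes rose. Of all genes 33.3% rose and 29.4% fell. By site, 3 of the muscle genes fell on the back, and 0 of the 4 passed on the abdomen or on the cheek. The largest called changes were falls of Ckm in muscle (-1.70 log2), Cidec in fat (-1.45), Col1a2 in fibroblasts (-1.09), Cd3g in T cells (-0.88) and Tek in endothelium (-0.37), and rises of Krt14 in keratinocytes (1.82), Tie1 in endothelium (0.76) and Pdgfra in fibroblasts (0.39), with limma adjusted p between 1.0e-07 and 0.020. FPKM are shares of each library, and the part of this shift in the member values was not tested.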

How the data were processed

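Total RNA from 24 skin samples, 4 per site and tissue, was sequenced in pairs. The deposited values are FPKM per gene, which the authors made by mapping to GRCm38/mm10 with HISAT2 and Bowtie2 2.2.5 and estimating with RSEM 1.2.12; they carry 2 decimals and no fragment totals, so depth is unknown. A second deposited table holds the fold changes and p-values of the authors' own comparisons and was not used. All per-sample columns mapped to a sample.

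The 10 genes and the other gene lists were chosen with earlier results of these data known. Named are all members, the called gene with the largest rise and fall of each other list in the mean wound effect, the basophil genes, Kitl and the 10 genes most like the members; Il1rl1 and Gata2 were added after their values were seen. Values were tested as log2(FPKM + 0.5) with limma 3.58.1 in R 4.3.3 (trend and robust moderation), dropping genes that reached 0.5 FPKM in fewer than 4 fitted libraries, with Benjamini-Hochberg adjustment over all genes tested and a threshold of 0.05. Fold changes on this scale understate those of low genes. Wound effects had a term for each of the 12 mice, since the labels give both tissues of a mouse. Deviations from group means correlated at 0.32, 0.35 and 0.28 on average within mice of abdomen, back and cheek. Between mice they correlated at -0.11, -0.12 and -0.096. Subtracting group means ties these values to those within mice, so they add no separate evidence. Sites were compared within the 12 libraries of each tissue. Exact tests were two-sided. The steps were tested on simulated data. Alternatives were other pseudocounts, filters, scalings, designs and each mouse left out.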

Additional observations from a re-analysis of the deposited data

Results flagged for a closer look

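In 60 groups of 4 libraries, 10 genes at 3 sites in 2 tissues, a sample was looked for whose gap to the next value took up nearly the whole range of its group; chance alone flags about 1 in 20 such groups. There were 2. Tpsab1 in the cheek wound of mouse 3 stood at 7.27 FPKM, above 2.55 to 3.33 in the other cheek wounds (gap 0.835 of the range). Mrgprb2 in the abdomen wound of mouse 3 stood at 0.06 FPKM, below 0.3 to 0.31 in the other abdomen wounds (gap 0.96 of the range), a value near 1 step of its smallest unit. The calls of a rise of Tpsab1 in cheek wounds and of a fall of Mrgprb2 in abdomen wounds were kept without that mouse. The calls of higher levels in cheek than in abdomen wounds were lost without it, for Tpsab1 without cheek mouse 3 (1.07 log2, adjusted p = 0.093, limma) and for Mrgprb2 without abdomen mouse 3 (0.60 log2, adjusted p = 0.10).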

How the results depend on the processing

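Over the alternatives other than leaving out a mouse, 148 values of the called members kept their direction and side of the threshold and 10 lost the call; over the fits without 1 mouse, 225 kept it and 23 lost it, and no called value turned its direction. Hdc kept its call at each site in every fit. In cheek against abdomen wounds the 4 members called became 2 under quantile normalization and 2 with mouse number as a replicate block; leaving out a mouse gave 1 to 5. In cheek against back wounds the 0 called became 1 with a pseudocount of 1 FPKM (Ms4a2, adjusted p = 0.0498, limma), and 0 to 1 without a mouse. The test of differing wound effects gave 0 to 2 without a mouse. The sample titles repeat each mouse number at every site, but do not say what a shared number marks. According to the paper each mouse was wounded at a single site, so same-numbered libraries of different sites were taken as different mice. Over all genes, deviations from group means of same-numbered libraries of 2 sites correlated at -0.17 to 0.018 on average. Each group held only 4 libraries, and whether the numbers mark a shared origin was not tested. The granule proteases did follow mouse number, as described under the other observations. Whether the calls lost under the replicate block mark weaker effects was not tested. For the wound effects, dropping the block of mouse terms lost only the Fcer1a calls on back and cheek, and fitting each site alone lost Tpsab1 on the abdomen (adjusted p = 0.0501). A filter of 1 FPKM, and for abdomen and back a fit of the site alone, left no value for Fcer1a. The cause of these losses was not tested.

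Signs turned only for changes that were not called. Cma1 in back wounds was -0.015 under quantile normalization, and Kit in the mean wound effect -0.019 under median-ratio scaling and -0.051 under quantile normalization. Leaving out a mouse turned 20 such values; the wound effects then ran from -0.34 to 0.0059 for Tpsb2 and -0.053 to 0.34 for Fcer1a on the abdomen, -0.090 to 0.24 for Cma1 on the back, -0.11 to 0.46 for Mcpt4, -0.019 to 0.55 for Cpa3, -0.11 to 0.16 for Ms4a2 and -0.15 to 0.066 for Mrgprb2 on the cheek, and -0.12 to 0.096 for Tpsb2 and -0.017 to 0.042 for Kit in the mean over sites. Low FPKM limit what can be said of Mrgprb2, Fcer1a, Ms4a2 and Tpsab1.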

Other observations

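Mice with the same number at different sites behaved alike for the granule proteases, a pattern noticed after the values were seen. The sample titles repeat each mouse number at all 3 sites. According to the paper each mouse was wounded at a single site, so libraries of different sites were taken as different mice. Unwounded skin of mouse 4 held the lowest of the 4 values in 11 of 12 combinations of protease (Cma1, Mcpt4, Tpsb2, Cpa3) and site, and wounds of mouse 2 in 10 of 12. All 4 proteases were higher in the wound of mouse 4 and lower in the wound of mouse 2 at each of the 3 sites. The proteases vary together, so these combinations are not independent. Across all genes the deviations of same-numbered libraries correlated between sites at -0.17 to 0.018 on average, and what the shared numbers mark was not tested.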
